A study of Danio rerio with 6 samples.

Results

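The mitochondrial ribosome translates the few messenger RNAs made from mitochondrial DNA, which in vertebrates encode core subunits of the respiratory chain and of ATP synthase. Its RNAs come from the mitochondrial genome, while its proteins are encoded in the nucleus, made in the cytosol and imported. Part of these proteins have counterparts in the bacterial ribosome and the others are known only from mitochondria. The fish embryo receives both mitochondria and messenger RNA from the egg, and much of that RNA is cleared around the onset of its own transcription.

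Mitochondrial ribosomal protein genes were taken by name, as every row of the deposited table whose symbol began with mrpl or mrps and a digit. This gave 75 of 32571 rows, with 74 different symbols, or 71 names when numbered copies of one gene are merged. By the place of their mammalian counterparts 46 rows belong to the large subunit and 28 to the small subunit, with mrps18a and mrps30 counted in the large subunit. The remaining row, MRPS36, carries the name kgd4 in the reference list of names and is now assigned to the 2-oxoglutarate dehydrogenase complex. By a list that goes by the numbers in the names, 42 rows were counted as having a bacterial counterpart and 32 as specific to mitochondria. A bacterial counterpart with another number is missed by this list, so rows such as mrps24, MRPL47 and MRPS28 may be misplaced. Single rows of that list were not checked by sequence. The genes were spread over 22 chromosomes, with at most 9 on any of them, and 2 rows lay on unplaced scaffolds.

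RNA came from pools of whole AB zebrafish embryos in 6 groups with 1 deposited value per gene each. Of the 5 groups at 6 hours post fertilisation (hpf), amanitin embryos had received a-amanitin by injection, which blocks RNA polymerase II, and control B was the control of that experiment. The miR-430 MO embryos had received a morpholino, a synthetic antisense strand that blocks the microRNA of that name. CNOT7-DN embryos had received CNOT7-DN, by the series design an inhibition of CNOT7, a subunit of the complex that shortens poly(A) tails. Control 6 hpf completes that stage. The last group was a control taken at 2 hpf, when the embryo still depends on RNA of the egg. No source used here says whether the controls were injected. Triplicates are stated by the series design, but replicates were not analysed one by one here, and no standard deviation can be given.

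Levels are FPKM, which relates fragments to the length of the gene and the size of the library. Genes are said to have risen or fallen only at q under 0.05 in the authors' deposited table, and sizes are log2 ratios of FPKM + 1, the first-named group over the second, for rows that reach 1 FPKM in one group or both. Summed over all rows, FPKM came to 747626 in amanitin and 726913 in the 2 hpf control and to at least 963040 in the other groups, and read depth is unknown. The stage labels were checked on marker genes. All 6 egg markers (zar1, zar1l, buc, btg4, mos and dazl) fell and 7 of the 9 rows of embryonic markers rose in control 6 hpf against the 2 hpf control in the authors' deposited table, and the other 2 rows, numbered copies of krt18, were below 1 FPKM in both groups. Of 8 rows for markers of later or adult tissues, 2 reached 1 FPKM in that comparison. These were fabp10a, which rose, with 2.57 FPKM in control 6 hpf and 0 in the 2 hpf control, and try, with 0.846 and 1.7 and no call. In amanitin embryos tbx16 stood at 0.168 FPKM and sox32 at 0.11, against 254 and 188 in control B. The row of sox32 had no call there (q = 0.0771 in the authors' deposited table). In miR-430 MO against control 6 hpf 3 of 6 egg markers fell (median -0.65) and 2 of 7 embryonic markers fell, against 16.1% of all genes. In CNOT7-DN 3 of 6 egg markers rose (0.47), against 10.1% of all genes, and 5 of 7 embryonic markers fell (-0.60), against 4%. The cause of these marker differences was not tested. In whole embryos fewer cells of a type and less RNA per cell cannot be told apart.

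Taken over all 75 rows, the mitochondrial ribosomal protein genes had their highest median at 2 hpf. Their median level was 6.37 FPKM in amanitin, 15.9 in control B, 19.3 in CNOT7-DN, 13.1 in miR-430 MO, 18.6 in control 6 hpf and 37.2 in the 2 hpf control. The interquartile range of the rows lay between 3.34 and 14.1 FPKM in amanitin, between 9.43 and 24.3 in control B, and between 21.3 and 46.4 in the 2 hpf control. Together the rows made up 0.103% of the summed FPKM in amanitin, 0.138% in control B, 0.158% in CNOT7-DN, 0.112% in miR-430 MO, 0.143% in control 6 hpf and 0.397% in the 2 hpf control. The cytosolic ribosomal proteins, 84 rows that serve the cell's main translation machinery, were ordered otherwise, with medians of 172 FPKM in amanitin, 345 in control B, 306 in CNOT7-DN, 341 in miR-430 MO, 344 in control 6 hpf and 172 in the 2 hpf control.

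The rows also differed more among themselves in amanitin. Among the 73 with an FPKM of at least 1 in the 2 hpf control, the interquartile range of log2(FPKM + 1) was 1.82 in amanitin, 1.25 in control B, 1.25 in CNOT7-DN, 1.18 in miR-430 MO, 1.27 in control 6 hpf and 0.965 in the 2 hpf control. The choice of rows by their 2 hpf level trims the low end in that group. Cytosolic ribosomal proteins chosen in the same way had 1.16 in amanitin, 0.72 in control B and 0.949 in the 2 hpf control. The respiratory chain list, of nuclear genes taken by name, also counts genes of ATP synthase and does not exclude assembly factors. That list had 2.23, 1.94 and 2.05 in the same groups, and all genes had 3.29, 2.98 and 2.93. The wider range in amanitin was thus not particular to the members.

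**Figure D1:**
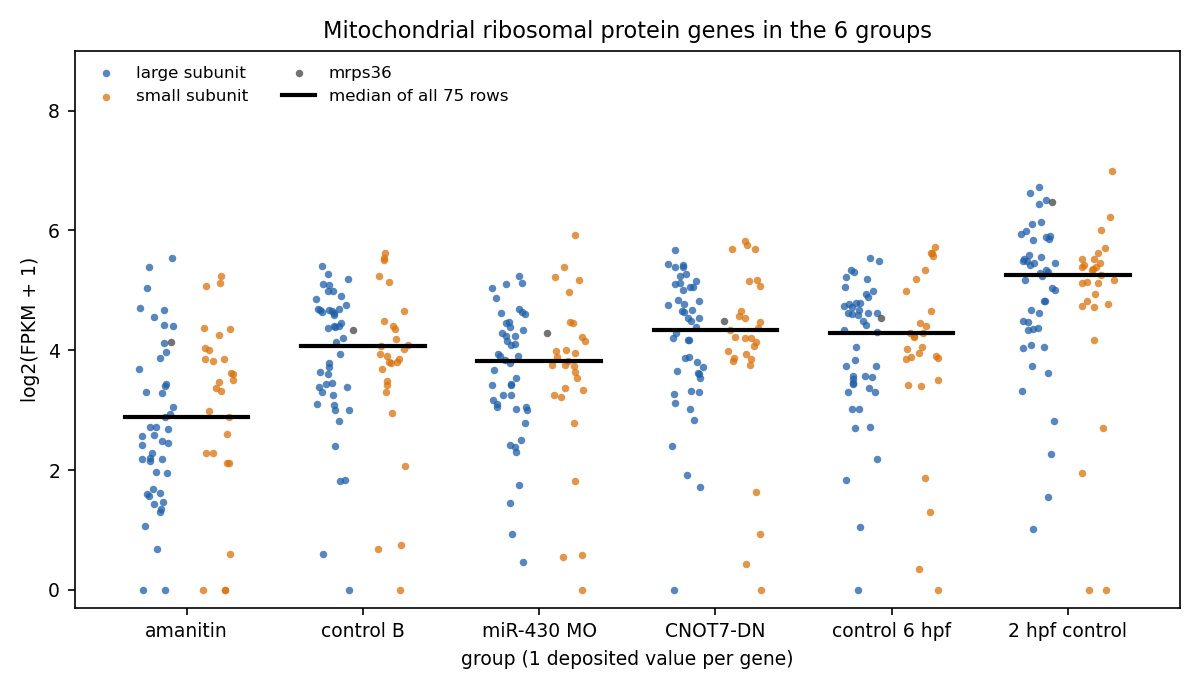
Levels of the 75 rows in the 6 groups, as log2(FPKM + 1), with 1 point per gene and the black bar at the median of all rows. The median is lowest in amanitin (6.37 FPKM) and highest in the 2 hpf control (37.2 FPKM), and the points of the amanitin group are the most spread.

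The most abundant member by its mean over the groups was mrps34, a small-subunit protein specific to mitochondria, at 34 FPKM in amanitin, 45.4 in control B, 55.8 in CNOT7-DN, 59.8 in miR-430 MO, 46.7 in control 6 hpf and 126 in the 2 hpf control. It was followed by mrps18b, by mrpl44, which has an RNase III-like fold, by mrpl3, which lies near the peptidyl transferase centre, and by mrpl38, a protein of the central protuberance. The lowest rows were numbered or repeated copies. One of the rows named mrps22 was listed at 0 in all groups and the other reached at most 0.596 FPKM, in control B. These rows, 45801 bases apart on chromosome 15, and the copies of MRPL53, MRPS12 and MRPS30 may share reads, so their values are uncertain. The locus of 10 members, among them mrps34, mrps18b and mrpl44, overlapped that of another row, and their values are uncertain for that reason too.

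The first comparison follows the RNA from the egg to the onset of gastrulation. Most mitochondrial ribosomal protein RNAs fell by 6 hpf. Of 72 tested, 54 fell and 3 rose in control 6 hpf against the 2 hpf control in the authors' deposited table, where 51.7% of all genes tested fell and 20.8% rose. The members' median log2 ratio was -0.92, against -0.47 over all genes, 0.96 for cytosolic ribosomal proteins and -0.69 for nuclear genes of the respiratory chain. By size 36 members were at least 2-fold lower, as were 29.9% of all genes, and 0 were at least 2-fold higher, against 18.6% of all genes. Rescaling to equal sums put the median at -1.38 and centring on the median gene at -0.45, so the direction held while the size depended on the scaling.

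Among genes at 5 FPKM or more the 4 deepest falls were in large-subunit genes. The subunits lay close as sets, with medians of -0.97 for the large and -0.85 for the small subunit. Of the large subunit 32 of 45 tested genes fell and of the small subunit 21 of 26, against 51.7% of all genes. For mrpl48, a protein of the central protuberance, the FPKM was 9.32 in control 6 hpf and 67.7 in the 2 hpf control (log2 ratio -2.74). It stood between 4.23 and 12.9 in the other 6 hpf groups, so the 2 hpf value was far above all of them. The counterpart of bacterial L14, mrpl14, a protein at the interface between the subunits, had 18.8 FPKM in control 6 hpf and 85.5 in the 2 hpf control (-2.13). For mrpl35 the values were 7.1 and 35 (-2.15), and for mrpl9, the counterpart of bacterial L9, 5.55 and 27.4 (-2.12). All 4 had q = 0.0001 in the authors' deposited table.

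Some members sit at known functional sites of the ribosome. The stalk protein mrpl12, whose human counterpart also binds the mitochondrial RNA polymerase, had 23.7 FPKM in control 6 hpf and 105 in the 2 hpf control (log2 ratio -2.10). Its neighbours at the stalk base were lower in level, with mrpl10 at 3.57 FPKM in control 6 hpf and 15.6 in the 2 hpf control, and mrpl11 at 8.9 and 23.6. In the peptidyl transferase region mrpl3 had 32.2 FPKM in control 6 hpf and 97.4 in the 2 hpf control (-1.56), while MRPL2 had 25.5 and 24.5 and was not called (q = 0.736 in the authors' deposited table). In the decoding region mrps5 had 18.6 FPKM in control 6 hpf and 35 in the 2 hpf control, and a copy of MRPS12 had 2.65 and 5.52, and both fell in that table. The other copy of MRPS12 had 1.47 and 2.86 FPKM and was not called (q = 0.235 in that table).

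The 3 genes that rose were all of the large subunit, as were 45 of the 72 members tested. MRPL32, which the m-AAA protease trims after import in yeast and mammals, had 43.7 FPKM in control 6 hpf and 21.5 in the 2 hpf control (log2 ratio 0.99, q = 0.0001 in the authors' deposited table). MRPL42 had 19.3 and 11.3 FPKM (0.73, q = 0.0203) and mrpl24, the counterpart of bacterial L24, had 26.2 and 19.4 (0.41, q = 0.033). The locus of mrpl24 overlaps that of another row. The smallest ratio in size was that of mrpl39, at 12.3 FPKM in both groups, and its locus too overlaps another row. Both mrps16, altered in a human mitochondrial disease, and mrpl36, the counterpart of bacterial L36, fell by 6 hpf in the authors' deposited table. The FPKM of mrps16 was 20.2 in control 6 hpf and 27.4 in the 2 hpf control, and that of mrpl36 was 9.82 and 19.3. MRPS36, the row of neither subunit, had 22.3 and 87.6 and fell too.

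The next comparison sets amanitin embryos against control B. A lower relative level there does not by itself show that an RNA depends on transcription in the embryo. Of 70 members tested, 42 fell and 5 rose in amanitin against control B in the authors' deposited table, whereas 29.2% of all genes tested fell and 41.6% rose. The median log2 ratio was -0.74 for the members and 0.12 over all genes. For the respiratory chain it was -0.67, with 48 of 87 tested genes fallen and 11 risen. It was -1.09 for cytosolic ribosomal proteins, so centring on those genes turns the members' median to 0.35, while centring on the median gene gives -0.86. By size 31 members were at least 2-fold lower and 1 at least 2-fold higher, against 28.7% and 20.5% of all genes.

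The subunits differed in their medians. The large subunit had a median of -1.17 (quartiles -1.97 and -0.38) with 30 of 44 tested genes fallen and 3 risen in the authors' deposited table. The small subunit had a median of -0.35 (quartiles -1.29 and -0.01) with 12 of 25 fallen and 2 risen. Of all genes tested 29.2% fell and 41.6% rose. The ranges between the quartiles overlapped, and the difference between the subunits was not tested. Genes counted as having a bacterial counterpart and those counted as specific to mitochondria lay closer, at -0.72 and -0.78. This split goes by names and may misplace rows, so the order of these medians is not read.

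The lowest ratios belonged to genes whose RNA was abundant in every group but amanitin. For mrpl54, specific to mitochondria, the FPKM was 1.76 in amanitin, 35.3 in control B, 40.7 in CNOT7-DN, 23.8 in miR-430 MO, 38.3 in control 6 hpf and 45.8 in the 2 hpf control. MRPL21, the counterpart of bacterial L21, had 2.87 FPKM in amanitin, 41.5 in control B, 41.7 in CNOT7-DN, 28.3 in miR-430 MO, 39.4 in control 6 hpf and 45.2 in the 2 hpf control. The platform protein mrps6 had 5.06 FPKM in amanitin, 48.3 in control B, 50.7 in CNOT7-DN, 30.4 in miR-430 MO, 51.7 in control 6 hpf and 40.9 in the 2 hpf control. In all 3 the level of control 6 hpf was within 1.5-fold of the 2 hpf control, and amanitin stood below every other group. Also at this end, mrpl1 of the L1 stalk and mrpl24 had 1.69 and 2.07 FPKM in amanitin, against 23.1 and 24.3 in control B. The log2 ratios of amanitin against control B were -3.72 for mrpl54, -3.46 for MRPL21, -3.17 for mrpl1, -3.04 for mrpl24 and -3.02 for mrps6, each with q = 0.000105 in the authors' deposited table.

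At the other end 5 genes rose in amanitin against control B. MRPS35, a small-subunit protein specific to mitochondria, had 19.8 FPKM in amanitin, 6.78 in control B, 13.6 in CNOT7-DN, 13.1 in miR-430 MO, 10.3 in control 6 hpf and 26.4 in the 2 hpf control. Its ratio of amanitin to control B was 1.42 on the log2 scale (q = 0.000105 in the authors' deposited table). For mrps30, a protein of the large subunit despite its name, the FPKM was 14.7 in amanitin, 6.97 in control B, 34.7 in CNOT7-DN, 9.81 in miR-430 MO, 10.5 in control 6 hpf and 46.9 in the 2 hpf control (0.98 for amanitin against control B). The central protuberance protein mrpl38 had 45.6 FPKM in amanitin and 32.9 in control B (0.46), MRPS9 had 13.4 and 10.2 (0.36) and MRPL2 had 31.8 and 24.8 (0.35). The adjusted values for these last 3 were q = 0.00281, 0.0456 and 0.0273 in the authors' deposited table. MRPS35, mrps30 and MRPS9 were also among the members that stood lowest in control B against control 6 hpf (log2 ratios -0.54, -0.53 and -0.53). In control 6 hpf MRPS9 stood at 15.2 FPKM, above amanitin, while MRPS35, mrps30, mrpl38 and MRPL2 (10.3, 10.5, 35.6 and 25.5) stood below it.

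**Figure D2:**
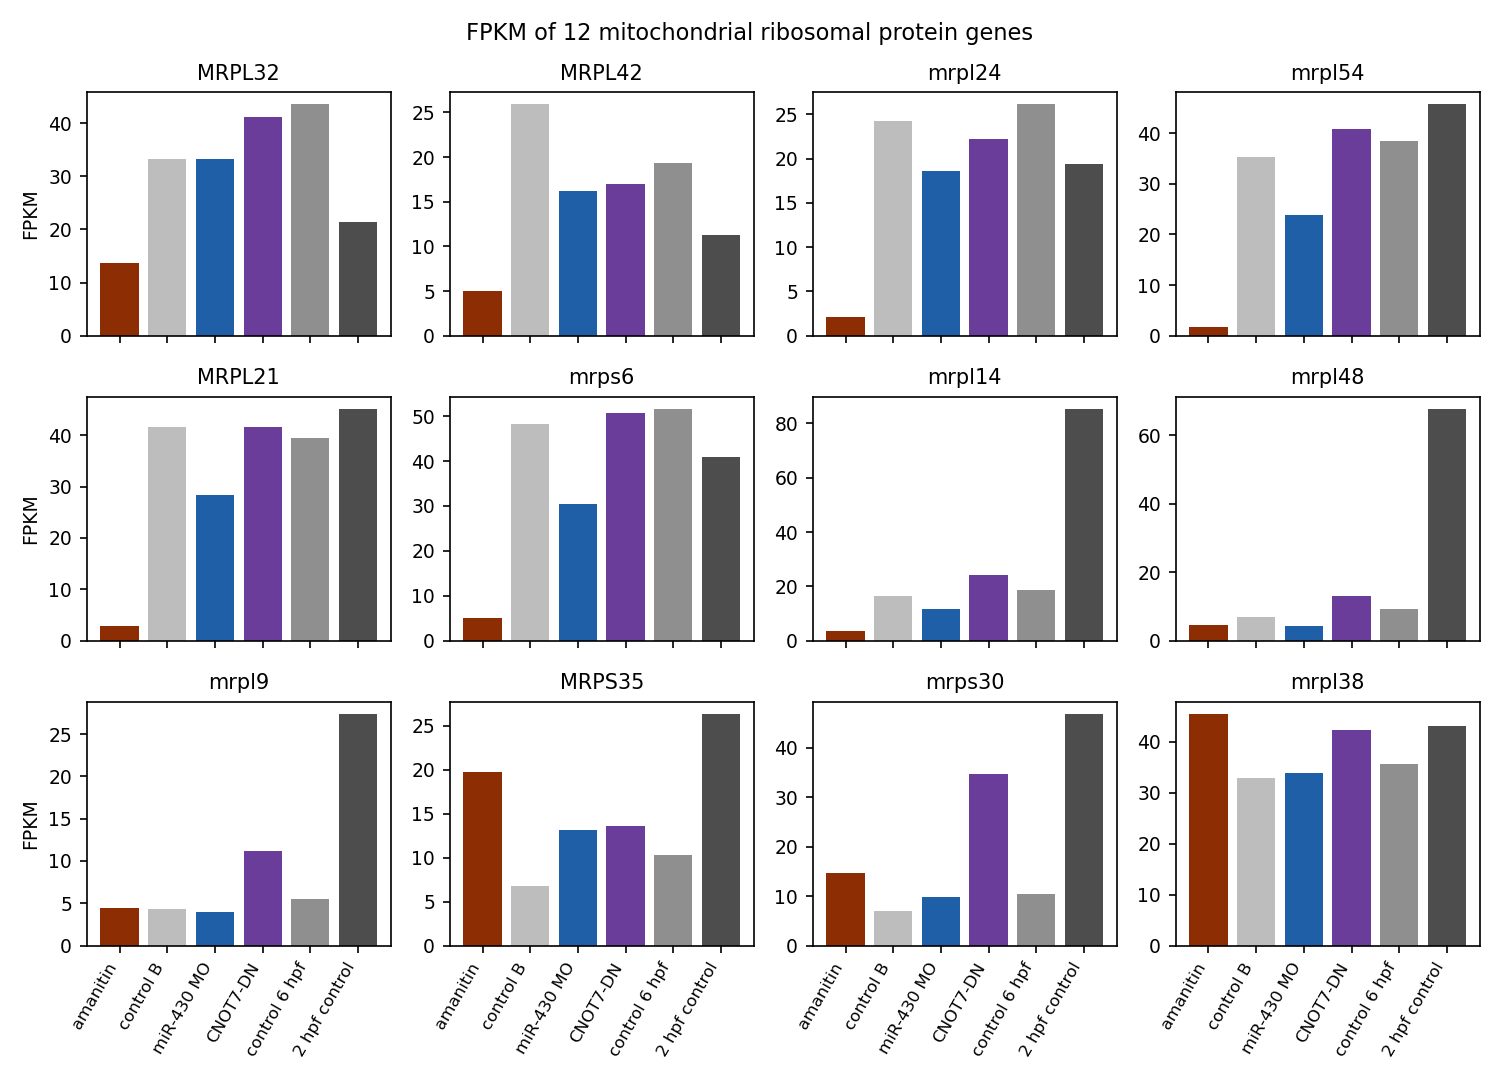
FPKM of 12 members in the 6 groups, with 1 deposited value per bar, no error bars and an axis from 0 in each panel. In the top row, MRPL21 and mrps6 amanitin is the lowest bar, in mrpl14, mrpl48 and mrpl9 the 2 hpf control is far above the rest, and in mrps30 the CNOT7-DN bar (34.7) stands above the other 6 hpf groups.

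Against the 2 hpf control in place of control B, nearly all members were lower in amanitin embryos. Of 71 members tested, 66 fell and 1 rose in the authors' deposited table, where 44.1% of all genes fell and 22.2% rose. The median log2 ratio was -1.95 for members, -0.34 over all genes, -1.61 for the respiratory chain (72 of 87 fallen and 4 risen) and -0.04 for cytosolic ribosomal proteins. By size 65 members were at least 2-fold lower, as were 28.3% of all genes, and 0 were at least 2-fold higher, against 5.5% of all genes. The steepest was mrpl14, at 3.55 FPKM in amanitin and 85.5 in the 2 hpf control (-4.25), followed by mrpl54 (-4.08), mrpl1 (-3.88) and MRPL55 (-3.81). The gene that rose was MRPL2, with 31.8 FPKM in amanitin and 24.5 in the 2 hpf control (0.36, q = 0.0283 in the authors' deposited table). This comparison shares the amanitin group with the one before and the 2 hpf control with the first one.

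The comparisons of control 6 hpf with the 2 hpf control and of amanitin with control B share no group, so their calls can be crossed. Both tested 70 members. Of the 53 that fell by 6 hpf, 31 fell in amanitin against control B, 19 had no call and 3 rose. The 31 are 58.5% of the members that fell by 6 hpf and 73.8% of the 42 that fell in amanitin. Over all 14643 genes tested in both, 7485 fell by 6 hpf and 1059 of these fell in amanitin, which is 14.1% of the first set and 24.9% of the 4259 that fell in amanitin. Of those 7485 genes 64.8% rose in amanitin, against 5.66% of the 53 members. Members of the respiratory chain stood nearer to the mitochondrial ribosomal proteins, with 27 of 56 fallen genes fallen again (48.2%).

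Among the 31 were mrpl14 (3.55 FPKM in amanitin, 16.6 in control B, 18.8 in control 6 hpf and 85.5 in the 2 hpf control) and mrpl12 (7.31, 20.1, 23.7 and 105 in the same groups). For both, the controls at 6 hpf lay below the 2 hpf control and amanitin lay below those controls. The 14 members with no call by 6 hpf included 8 that fell in amanitin, among them MRPL21, mrpl54 and mrps6 (57.1%, against 25.5% over all genes). This share was not particular to the members, with 16 of 24 in the respiratory chain (66.7%) and 3 of 5 cytosolic ribosomal proteins (60%). All 3 members that rose by 6 hpf fell in amanitin, as did 68.7% of the 3187 genes that rose by 6 hpf, with MRPL32 at 13.6 FPKM in amanitin against 33.3 in control B, and MRPL42 at 4.95 against 26. Across genes the log2 ratios of these comparisons had a Pearson correlation of -0.35 over the 70 members and of -0.82 over the 14643 genes, given as a description since genes are not independent replicates.

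**Figure D3:**
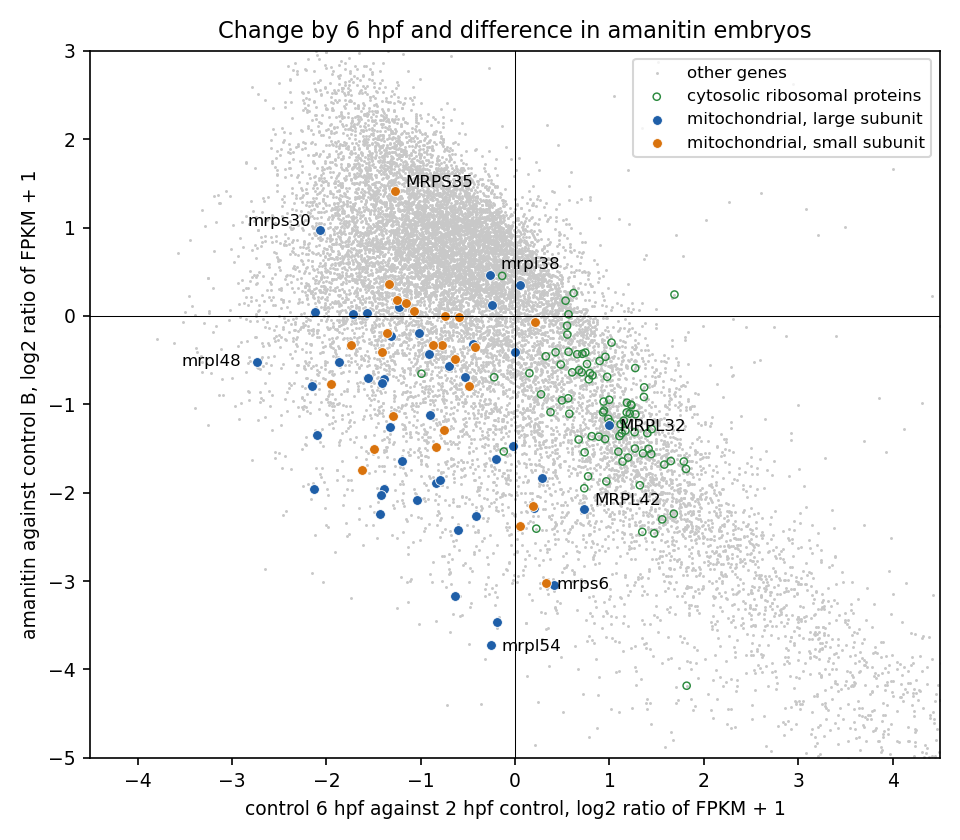
Each point is a gene, with the log2 ratio of control 6 hpf against the 2 hpf control on the horizontal axis and that of amanitin against control B on the vertical axis. The 69 mitochondrial members (large and small subunit) lie mostly in the lower left, where 31 genes fell in both comparisons, while most other genes with a fall by 6 hpf lie in the upper left; genes beyond the axis limits and MRPS36 are not drawn.

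Blocking miR-430 was accompanied by slightly lower levels of nearly all members. The log2 ratio of miR-430 MO against control 6 hpf was below 0 for 68 of 72 members (94.4%), against 62.1% of all genes, and the median was -0.41, against -0.12. Of 69 members tested, 25 fell and 1 rose in the authors' deposited table, while 16.1% of all genes fell and 9.41% rose. No member was 2-fold apart (0 higher, against 2.66% of all genes, and 0 lower, against 2.26%). Cytosolic ribosomal proteins had a median of -0.0046, with 1 of 82 fallen and 1 risen, and the respiratory chain had -0.26, with 8 of 87 fallen and 4 risen.

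Control B also lay below control 6 hpf in 55 of 72 members (76.4%, against 54.5% of all genes), with a smaller median of -0.13. Medians in miR-430 MO were -0.42 for the large and -0.42 for the small subunit. The largest difference was in mrpl48, at 4.23 FPKM in miR-430 MO and 9.32 in control 6 hpf (-0.98, q = 0.00507 in the authors' deposited table). MRPL55 had 7.99 and 15.7 FPKM (-0.89), mrpl17, the counterpart of bacterial L17, had 14 and 25.8 (-0.84), and mrps6 had 30.4 and 51.7 (-0.75, q = 0.000589). Control B stood at 7, 14.2, 20.1 and 48.3 FPKM for mrpl48, MRPL55, mrpl17 and mrps6, above miR-430 MO in each. The member that rose was mrps7, a protein of the small subunit's head, with 14.5 FPKM in miR-430 MO, 9.72 in control 6 hpf and 9.65 in control B (0.53, q = 0.0357). The members' median was -0.29 centred on the median gene, and -0.31 with control B in place of control 6 hpf.

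CNOT7-DN embryos differed little from control 6 hpf in these genes. Of 71 tested members, 1 fell and 3 rose in the authors' deposited table, where 4% of all genes fell and 10.1% rose. The median was 0.10, against 0.04 over all genes and -0.18 for cytosolic ribosomal proteins. The 3 that rose were mrps30, mrpl9 and mrpl28. For mrps30 the FPKM was 34.7 in CNOT7-DN, against 10.5 in control 6 hpf and 46.9 in the 2 hpf control, and it is the only member at least 2-fold higher, with a log2 ratio of 1.64. By that size 1.51% of all genes were higher and 1.26% lower, and 0 members were lower. The FPKM of mrpl9 was 11.1 in CNOT7-DN and 5.55 in control 6 hpf (0.89), and that of mrpl28, the counterpart of bacterial L28, was 37.5 and 20.5 (0.84). Each had q = 0.000996 in the authors' deposited table. The second copy of MRPS30 had 2.3 FPKM in CNOT7-DN and 1.07 in control 6 hpf (0.67) and no call (q = 0.137 in that table). The member that fell was mrps10, a small-subunit protein with a bacterial counterpart, at 21.2 FPKM in CNOT7-DN and 30.8 in control 6 hpf (-0.52, q = 0.0306), and control B stood at 21.4. The miR-430 MO and CNOT7-DN comparisons share control 6 hpf.

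**Figure D4:**
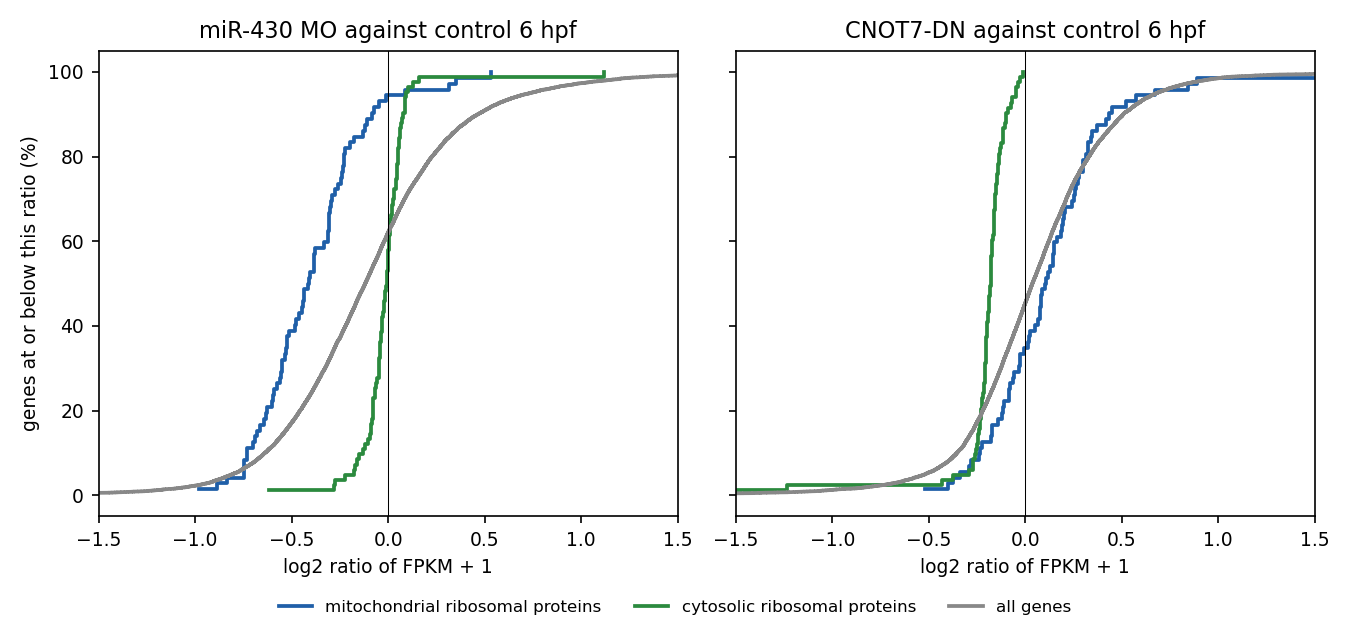
Cumulative share of genes (vertical axis, %) at or below a log2 ratio of FPKM + 1 (horizontal axis, cropped at 1.5 either side) in miR-430 MO and in CNOT7-DN against control 6 hpf. In miR-430 MO the curve of the mitochondrial ribosomal proteins (median -0.41) lies, over most of its length, left of those of cytosolic ribosomal proteins and of all genes (-0.12), and in CNOT7-DN it lies close to that of all genes (0.10 and 0.04).

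The controls at 6 hpf were not tested against each other in the table. Control B lay a little below control 6 hpf, with a median log2 ratio of -0.13 over 72 members and -0.04 over all genes, and 0 members were 2-fold apart, against 2.34% of all genes higher and 1.57% lower. Among members at an FPKM of at least 5 the lowest ratio was that of mrpl44, at 30.9 FPKM in control B and 45.5 in control 6 hpf (-0.55). The highest was that of MRPL42, at 26 and 19.3 FPKM (0.41). The ratios of all members between the controls had a standard deviation of 0.22 on the log2 scale.

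Paralogs and copies are given apart. The second copy of MRPS30, at no more than 3.84 FPKM in any group, fell by 6 hpf as mrps30 did in the authors' deposited table. The first copy of MRPL53 had 2.56 FPKM in control 6 hpf and 1.93 in the 2 hpf control, with no call. It fell in amanitin, with 0 FPKM against 2.57 in control B. The second copy of MRPL53 stood at no more than 1.03 FPKM in any group and was not tested in any comparison. The bacterial S18 protein has several counterparts in mitochondria, of which mrps18a sits in the large and mrps18b and mrps18c in the small subunit. Levels of mrps18a were 22.5 FPKM in amanitin, 20.9 in control B, 23.7 in control 6 hpf and 56.7 in the 2 hpf control. Those of mrps18b were 36.6 in amanitin, 36.8 in control B, 48.5 in control 6 hpf and 73.7 in the 2 hpf control, and those of mrps18c were 3.87, 12.8, 13.4 and 39.5. All 3 fell by 6 hpf in the authors' deposited table, and of these mrps18c fell in amanitin against control B (q = 0.00289) while mrps18a and mrps18b had q = 0.557 and 0.972. The loci of mrps18b and mrps18c overlap those of other rows.

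Members that lie close together on the genome were compared as well. On chromosome 7 (Zv9) mrps11 (15389371 to 15413237) and mrpl46 (15413451 to 15420625) are 213 bases apart as the table gives them. In amanitin mrps11 had 19.5 FPKM, against 19.5 in control B, while mrpl46 had 5.43, against 9.45, and fell. By 6 hpf both fell, with 24.2 FPKM in control 6 hpf and 41.1 in the 2 hpf control for mrps11, and 12.3 and 38 for mrpl46. On chromosome 1 mrpl16 and mrpl39 are 1870 bases apart, and both loci overlap other rows. By 6 hpf and in amanitin against control B mrpl16 fell, with 1.97 FPKM in amanitin, 6.08 in control B, 5.59 in control 6 hpf and 15.5 in the 2 hpf control, while mrpl39 had no call in either comparison. On chromosome 19 mrpl24 rose by 6 hpf and mrpl9, 12168 bases away, fell.

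Rows outside the name rule include proteins of the same particle. The reference list of names gives an mrpl name to 5 further rows, mrpl4 (as zgmrpl4), mrpl30 (as C9H2orf15), mrpl49 (as BX248510.1), mrpl57 (as mrp63) and mrpl58 (as ICT1). Of these zgmrpl4 had 1.51 FPKM in amanitin, 11.8 in control B, 13.7 in control 6 hpf and 6.22 in the 2 hpf control, so it rose by 6 hpf (1.03) and fell in amanitin (-2.35). The level of mrp63 was 4.26 FPKM in amanitin, 43.6 in control B, 40.8 in control 6 hpf and 48.4 in the 2 hpf control. Both C9H2orf15 and BX248510.1 fell by 6 hpf and in amanitin, while ICT1, a peptidyl-tRNA hydrolase of the large subunit, had no call in either. A list of 8 genes with other names, which holds mrp63 and ICT1 too, covers mitoribosome proteins and oxa1l, which is not one of them. By 6 hpf 4 of the 8 fell, a share near the 51.7% of all genes tested. In amanitin against control B 4 fell and 3 rose, against 29.2% and 41.6% of all genes tested. Those that fell in amanitin were mrp63 (log2 ratio -3.08), oxa1l (-1.5), aurkaip1 (-0.96) and gadd45gip1 (-0.54), and those that rose were ptcd3 (0.58), dap3 (0.52) and chchd1 (0.45). The GTP-binding small-subunit protein dap3 had 24.9 FPKM in amanitin, 17.1 in control B, 17.5 in control 6 hpf and 27.5 in the 2 hpf control, and it fell by 6 hpf (-0.62, q = 0.000195 in the authors' deposited table).

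The other lists of mitochondrial gene expression are read against all genes tested, of which 51.7% fell and 20.8% rose by 6 hpf and 29.2% fell and 41.6% rose in amanitin against control B. Mitochondrial translation factors had 11 of 13 fallen and 1 risen in control 6 hpf against the 2 hpf control in the authors' deposited table, and 4 fallen and 4 risen in amanitin against control B (median 0.15). The initiation factor mtif3 rose by 6 hpf, with 10.8 FPKM in control 6 hpf and 4.21 in the 2 hpf control, and stood at 1.36 in amanitin against 9.62 in control B. Mitochondrial tRNA synthetases and the tRNA amidotransferase subunits listed with them had 13 of 19 fallen and 1 risen by 6 hpf, and 4 of 18 fallen and 10 risen in amanitin (median 0.62). Among them cars2, the cysteinyl-tRNA synthetase, had 23 FPKM in amanitin, 4.79 in control B, 6.52 in control 6 hpf and 43 in the 2 hpf control. The amidotransferase subunit GATC had 3.25 FPKM in amanitin, 40.4 in control B, 41.5 in control 6 hpf and 19.6 in the 2 hpf control. Assembly factors had 14 of 18 fallen and 1 risen by 6 hpf, and 6 fallen and 4 risen in amanitin. The methyltransferase mrm1 of the large-subunit RNA rose in amanitin, with 19 FPKM against 6.96 in control B, and MTERFD2, of the mTERF family, fell, with 0.798 against 16.2. Genes of mitochondrial DNA expression had 7 of 13 fallen by 6 hpf, a share near that of all genes, with 2 risen, and 3 each way in amanitin. Among them POLRMT, the mitochondrial RNA polymerase, had 11.8 FPKM in control 6 hpf and 43.1 in the 2 hpf control. In miR-430 MO, where 16.1% of all genes fell, 11 of 18 assembly factors fell (median -0.57), as did 5 of 12 translation factors (-0.45), 7 of 17 tRNA synthetases (-0.32) and 4 of 13 genes of mitochondrial DNA expression (-0.24). Of the 8 genes with other names 2 fell there (-0.31). In CNOT7-DN, where 10.1% of all genes rose, 5 of 18 assembly factors, 3 of 19 tRNA synthetases and 2 of 13 translation factors rose. In the same comparison 0 of 13 genes of mitochondrial DNA expression, 0 of the 8 genes with other names and 4 of 87 respiratory chain genes rose. The 13 rows of mitochondrially encoded genes were listed at 0 in every group, so the messages that this ribosome translates were not measured here.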

How the data were processed

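Pooled whole embryos gave total RNA for stranded libraries depleted of ribosomal RNA (per the labels' protocols on extraction). The submitters' processing notes name TopHat 1.4.0, Cuffdiff 2.1.1 and the build Zv9, also called danRer7. The authors deposited 1 FPKM per group and gene for 5 comparisons, with p-values and q-values, per the file headers. Their p-values go no lower than 5e-05. The smallest q-values of a comparison therefore repeat over many genes and rank neither genes nor comparisons. No source used here gives the scaling between libraries, the annotation release or the use of strand in counting. With no replicate values, no test was run here and depth is unknown; the q-values may measure technical spread only, since it is not stated that the triplicates came from separate clutches.

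Members were rows with a symbol starting mrpl or mrps and a digit. A member's deposited copies in several comparisons differed by at most 0.0057%. Members and lists were chosen with earlier results of these data known. Log2 ratios used a pseudocount of 1 on rows reaching 1 FPKM in one group or both. Genes counted as tested have that level and the status OK in the authors' deposited table. Named members are the 4 largest and 4 smallest ratios at 5 FPKM or more and q under 0.05 per comparison, the extremes of abundance, paralogs and members with set roles. Other lists give up to 4 genes by the same rule. Loci are printed as deposited, without a check of whether starts count from 0 or 1. Of 75 IDs, 62 were found in the reference list of names. Alternatives were q under 0.01, folds of 1.5 and 4, pseudocounts of 0.1 and 5, no FPKM minimum or one of 5, q with a 2-fold size, equal sums, centring on all genes or on cytosolic ribosomal proteins, unique rows and the other control. Members were also taken without MRPS36, or with the rows named only in the reference list, and both settings were chosen after seeing the data. Without MRPS36, 53 members fell by 6 hpf in the authors' deposited table and the median log2 ratio was -0.91. The scripts were tested on simulated FPKM. Python 3.11.15, numpy 2.4.6, pandas 2.3.3 and matplotlib 3.10.9 were used.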

Additional observations from a re-analysis of the deposited data

How the results depend on the processing

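No replicate values were analysed, so no replicate could be left out, and no paired analysis was possible because each group has 1 deposited value per gene. Of 278 alternative values, 235 kept their direction and size, counts within 1.5-fold and medians within the 0.22 that members vary between the controls on the log2 scale. For control 6 hpf against the 2 hpf control the median of -0.92 became -1.38 with equal sums, -0.45 centred on the median gene and -1.88 centred on cytosolic ribosomal proteins. For amanitin against control B the median of -0.74 became -0.40 with equal sums and 0.35, the opposite sign, centred on cytosolic ribosomal proteins, which fell there themselves. For amanitin against the 2 hpf control the median of -1.95 became -2.35 and -1.46 with pseudocounts of 0.1 and 5 and -1.61 centred on the median gene. No alternative moved the medians for miR-430 MO or CNOT7-DN by more than 0.22.

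Counts by size moved most. The shares of all genes at these alternative settings were not computed, so the counts describe the members only. By 6 hpf the 36 members at least 2-fold lower became 15 centred on the median gene, 61 centred on cytosolic ribosomal proteins and 6 at 4-fold, and the 0 higher became 1 with a pseudocount of 0.1, 2 centred on the median gene, 1 with the 5 rows named only in the reference list (an alternative chosen after seeing the data) and 2 at 1.5-fold. In amanitin against control B the 31 lower became 12 centred on cytosolic ribosomal proteins and 14 at 4-fold. The 1 higher became 2 with a pseudocount of 0.1, with equal sums and at 1.5-fold, 16 centred on cytosolic ribosomal proteins and 0 at 4-fold. Against the 2 hpf control the 65 lower became 36 at 4-fold. In miR-430 MO the 0 lower became 2 with a pseudocount of 0.1 and 18 at 1.5-fold. In CNOT7-DN the 1 higher became 2 with a pseudocount of 0.1, 3 centred on cytosolic ribosomal proteins, 4 at 1.5-fold and 0 at 4-fold.

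With q under 0.01 in the authors' deposited table, members risen became 1 by 6 hpf, 3 in amanitin against control B, 0 against the 2 hpf control and 0 in miR-430 MO, and members fallen became 11 in miR-430 MO and 0 in CNOT7-DN. With a 2-fold size added, 0 rose and 35 fell by 6 hpf, 1 rose in amanitin against control B and 0 against the 2 hpf control, 0 rose and 0 fell in miR-430 MO, and 1 rose and 0 fell in CNOT7-DN. For these settings too the shares of all genes were not computed. The cause of these moves was not tested.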

Other observations

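Among 7559 genes that are no members and stood at an FPKM of at least 5 in every group, the profile over the 6 groups most like the members' mean was that of dnajc9, which encodes a co-chaperone of histones (Pearson r = 0.999 on log2(FPKM + 1), a description over 6 values that share their libraries). Its FPKM was 5.34 in amanitin, 14.6 in control B, 19 in CNOT7-DN, 11 in miR-430 MO, 16.5 in control 6 hpf and 44.6 in the 2 hpf control. Next came ndufs3, a subunit of respiratory complex I (r = 0.998), at 7.7 FPKM in amanitin, 16.9 in control B and 44.5 in the 2 hpf control, and rnf8, a ubiquitin ligase of the response to DNA breaks (r = 0.997), at 6.19, 21 and 81.8 in the same groups. These 3 genes were chosen for the highest r, so they are not compared with the members. Over the 44 members at an FPKM of at least 5 in every group, r with that mean ranged between -0.58 and 0.995 with a median of 0.855, and 737 genes that are no members reached that median. These members are themselves part of that mean and the other genes are not, so their r values are not on an equal footing.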
